A study of Mus musculus with 6 samples.

Results

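The genes described here are a fixed set of cell-cycle genes: 30 that act in mitosis and 29 that act in DNA replication, listed by gene symbol. Of these, 58 were found among the 20896 transcripts of the deposited table, with 1 transcript per gene, namely all 30 mitotic genes and 28 replication genes; Gins2 was not analysed here. All 58 passed the filter on low reads, which was passed by 16683 transcripts. They were measured by total RNA sequencing in 6 clones of mpkCCD, a line of mouse kidney cortical collecting duct cells: 3 control clones and 3 clones labelled PKA dKO, that is double knockout for protein kinase A, the kinase activated by cyclic AMP, made with CRISPR-Cas9. Each clone gave 1 library, so a group is 3 lines of 1 clone each, and the p-values measure the spread between these libraries. Both groups had the same history. They were grown on permeable supports for 4 days with 2% serum, insulin, dexamethasone, triiodothyronine, epidermal growth factor, selenite and transferrin, and then held for 3 days without serum or hormones but with 0.1 nM dDAVP, an agonist of the V2 vasopressin receptor. No library without dDAVP, and none from growing cultures, was analysed here.

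Which genes were edited is not said in the labels; Prkaca, which encodes a catalytic subunit of PKA, had 133, 75.8 and 90.6 CPM across controls and 6.65, 8.49 and 7.44 CPM across dKO clones, so it was lower in every library labelled PKA dKO. CPM are reads per unit of the library total, adjusted by TMM factors, which balance the composition of libraries. Prkacb, the gene of another catalytic subunit, had 138, 109 and 116 CPM across controls and 99.1, 105 and 105 CPM across dKO clones (log2 fold change -0.23 ± 0.13 SE, with limma adjusted p = 0.939). Aqp2, the vasopressin-regulated water channel gene, had 399, 139.8 and 157 CPM across controls and 3.39, 2.72 and 1.82 CPM across dKO clones (log2 fold change -6.30 ± 0.35 SE, with limma adjusted p = 1.59e-05). Values in each group are given throughout in the order of clones 1, 2 and 3. The listed reads of a library summed to between 28596444 and 42515838. Each mitotic gene had 492 to 30359 of them and each replication gene 501 to 27284 in a library. The libraries of control clone 1 and dKO clone 3 differed from the rest: no read fell on 2443 and 2363 transcripts, against 863 to 1045 in the others, and they lay together at one end of the first principal component. Their listed reads were 48.7% and 48.1% of the totals that the deposited values per transcript length imply, against 31.7% to 39.9% in the others. The part of this difference in the results was not tested. The mitotic and replication medians and calls are given with and without these libraries, and single genes in that way only where stated. The cells carried epithelial RNA, with summed levels of 7 epithelial markers of 4883 to 5611 CPM across controls and 4513 to 5019 CPM across dKO clones. Of 11 principal-cell markers, 8 exceeded 5 CPM in at least 1 library. All 7 intercalated-cell, 6 fibroblast, 6 endothelial and 4 blood-cell markers in the table stayed below 5 CPM in every library. Of 7 proximal-tubule markers, 4 stayed below 5 CPM, while their sum was 313 to 411 CPM across controls and 701 to 869 CPM across dKO clones, nearly all of it from the endocytic receptor gene Lrp2, which rose (390.4, 392 and 299 CPM across controls and 687, 851 and 821 CPM across dKO clones; log2 fold change 1.13 ± 0.16 SE, with limma adjusted p = 0.0252). The part of these markers in the results below was not tested.

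A dividing cell copies its DNA in S phase and separates the copies in mitosis, and it makes most of the machinery for each step shortly before use. Replication genes are switched on at the G1/S boundary, mainly by E2F factors. Mitotic genes are switched on later, in G2, by the MuvB complex with B-Myb and FoxM1, which acts at the cell cycle genes homology region (CHR) and, with NF-Y, at CCAAT boxes. In resting cells the DREAM complex holds both sets down. The mature collecting duct divides rarely, whereas a cell line in culture can keep dividing. Whether the cells of these cultures had stopped dividing was not measured. In bulk RNA, fewer cells in a phase and less RNA per cell cannot be told apart.

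The mitotic and replication sets differed in the letters of their promoters, independently of any expression value. RefSeq promoters of build GRCm38.p6, running from 250 bases before to 50 after the start, were matched for 26 mitotic and 23 replication genes by symbol, taking the start nearest the listed transcript; Ccna2, Aurkb, Kif20a, Tpx2, Mcm4, Gins1, Gins2, Rfc2, Pole and Ccne2 were unmatched. The start lay more than 300 bases from that of the listed transcript for Kif2c, Mcm7 and Cdc6, which stay in the counts below. The CHR was searched as TTTGAA or TTCGAA on both strands. It was present in 21 of 26 mitotic promoters (80.8%) and in 5 of 23 replication promoters (21.7%), against 14.3% of 12342 promoters of tested transcripts and 19.2% of all 32851 promoters in the RefSeq table. In 19 mitotic promoters and 1 replication promoter a CHR match began no more than 40 bases before the start or lay after it, a window chosen after the matches were seen, and 3.13% of promoters of tested transcripts had such a match. The E2F letters TTTGGCGC, TTTCGCGC or TTTCCCGC, on both strands, showed the opposite split, with 1 mitotic promoter (3.85%) and 10 replication promoters (43.5%), against 2.93% of tested transcripts and 1.84% of all promoters. CCAAT on either strand was frequent in both sets, in 20 mitotic (76.9%) and 14 replication promoters (60.9%), against 37.8% of tested transcripts and 37.4% of all promoters. Without Kif2c, Mcm7 and Cdc6 the CHR was present in 20 of 25 mitotic and 4 of 21 replication promoters, and the E2F letters in 1 and 8. The TATA letters TATAAA were found in 1 mitotic and 2 replication promoters, against 9.08% of tested transcripts and 13.6% of all promoters. Median GC content was 59.00% in the mitotic, 57.7% in the replication and 59.7% in the tested promoters.

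The 160 bases before the start are shown for 7 genes, because they carry the letters that divide the sets and include mitotic genes at both ends of the range of fold changes given below. Top2a and Kif11 were among the mitotic genes with the highest fold changes, Cdc20 and Ube2c among the lowest, Mcm5 and Mcm6 have E2F letters, and Mcm2 has CHR letters although it is a replication gene. Capitals mark CCAAT, CHR and E2F letters on either strand, and overlapping E2F matches run together. The windows are chr11:99024190-99024349 (minus strand) for Top2a, chr19:37376222-37376381 (plus strand) for Kif11, chr4:118437344-118437503 (minus strand) for Cdc20, chr2:164769769-164769928 (plus strand) for Ube2c, chr8:75109349-75109508 (plus strand) for Mcm5, chr1:128359706-128359865 (minus strand) for Mcm6 and chr6:88898781-88898940 (minus strand) for Mcm2, each printed 5′ to 3′ along the gene.
Top2a: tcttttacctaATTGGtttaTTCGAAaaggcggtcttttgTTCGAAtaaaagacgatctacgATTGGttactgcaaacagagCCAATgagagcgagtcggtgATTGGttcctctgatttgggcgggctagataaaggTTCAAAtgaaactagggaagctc
Kif11: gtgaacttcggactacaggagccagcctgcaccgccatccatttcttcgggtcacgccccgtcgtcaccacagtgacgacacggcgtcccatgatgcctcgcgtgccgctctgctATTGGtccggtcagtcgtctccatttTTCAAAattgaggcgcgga
Cdc20: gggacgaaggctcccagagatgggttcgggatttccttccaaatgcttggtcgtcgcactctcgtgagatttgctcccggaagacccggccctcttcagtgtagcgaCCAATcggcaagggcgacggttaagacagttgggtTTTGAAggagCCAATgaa
Ube2c: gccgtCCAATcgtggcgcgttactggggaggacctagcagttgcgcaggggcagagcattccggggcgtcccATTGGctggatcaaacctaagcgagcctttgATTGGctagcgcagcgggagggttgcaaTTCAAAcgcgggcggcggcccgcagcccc
Mcm5: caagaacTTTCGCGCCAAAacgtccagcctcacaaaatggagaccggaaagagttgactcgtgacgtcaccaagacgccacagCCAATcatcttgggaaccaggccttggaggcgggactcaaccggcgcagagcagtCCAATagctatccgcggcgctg
Mcm6: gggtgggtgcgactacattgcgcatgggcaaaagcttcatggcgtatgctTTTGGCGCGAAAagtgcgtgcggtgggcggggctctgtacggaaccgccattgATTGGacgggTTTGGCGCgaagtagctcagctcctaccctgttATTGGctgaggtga
Mcm2: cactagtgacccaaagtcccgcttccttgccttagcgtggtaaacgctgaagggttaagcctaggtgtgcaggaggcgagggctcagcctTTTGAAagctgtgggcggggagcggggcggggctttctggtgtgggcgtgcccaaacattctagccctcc
All 4 mitotic windows hold a CHR match within 30 bases of the start and a CCAAT match upstream of it, and none holds E2F letters. The windows of Mcm5 and Mcm6 hold 2 and 3 E2F matches and no CHR, and that of Mcm2 holds a CHR match farther from the start and neither CCAAT nor E2F letters. A match is a description of letters, and no binding was measured.

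All 30 mitotic genes had higher fitted levels in the dKO clones than in the control clones, but none passed the test over all transcripts. The median log2 fold change was 0.27, a ratio of 1.21, with a range of 0.05 for Ube2c to 0.45 for Cenpe. The fit was limma-trend with Benjamini-Hochberg adjustment, and the lowest adjusted p among them was 0.443. Over all transcripts tested the median was -0.0015, 49.8% had a positive fold change, 0.0539% were called higher and 0.114% lower. At an unadjusted p under 0.05, 7 mitotic genes were higher (Bub1, Top2a, Bub1b, Kif11, Cenpe, Ndc80 and Hmmr), against 2.40% of all transcripts. EdgeR's quasi-likelihood test on recovered reads and DESeq2 gave 5 and 6 such genes and called none after adjustment. This number was not stable: it was 15 without TMM factors and 12 with a term for the libraries that stood apart. It was 23 without control clone 1, and 0 without control clone 2 or on the deposited values per transcript length. The 28 replication genes had a median of 0.08, with 21 positive and 7 negative values from -0.38 for Cdt1 to 0.26 for Cdc6, and none had an unadjusted p under 0.05 in either direction (background 2.40% higher and 3.84% lower). Of the mitotic genes 17 lay above the highest replication gene. The positive sign held for all 30 mitotic genes under every other scaling or filter tried, and for 25, 29 and 29 without control clone 2, control clone 3 and dKO clone 3. The number of positive replication genes was 19 to 21 under the other scalings and filters. The heat map of all members shows both sets clone by clone.

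**Figure D1:**
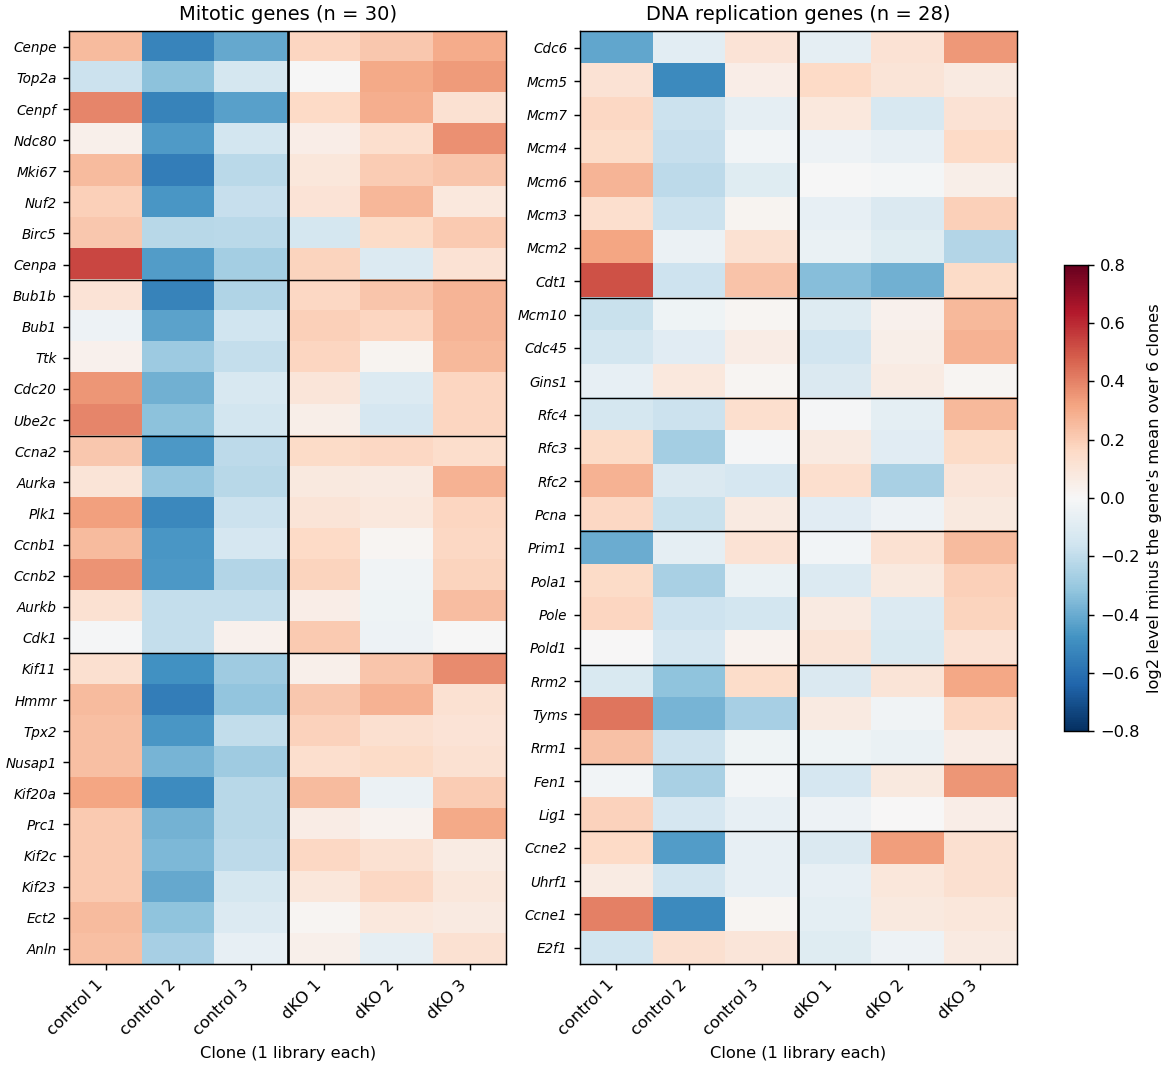
Heat map of the 30 mitotic and 28 replication genes (rows, grouped by role between the horizontal lines) in the 6 clones (columns); the colour is the log2 level in a clone minus the gene's mean over 6 clones. Control clone 2 has the lowest level of all 30 mitotic genes. Control clone 1 is above every dKO clone for 17 of these genes and within the dKO range for 9.

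Most mitotic genes did not divide the clones by group. Control clone 2 had the lowest level of the 6 clones for all 30, against 20.5% of all transcripts, and control clones 2 and 3 lay below every dKO clone for 28 of 30, against 17.3%. Control clone 2 was also lowest for 19 of 28 replication genes, 21 of 34 replication genes outside the set and 2 of 7 epithelial markers. Control clone 1, however, was above every dKO clone for 17 genes, within the dKO range for 9 and below every dKO clone for 4. These counts were not made over all transcripts. They rest on the TMM factors, 0.909 for control clone 1 and 1.04, 1.03 and 0.941 for dKO clones 1, 2 and 3. Without the factors control clone 1 would be lower against every dKO clone, and the counts were not repeated that way. Expressed as the deviation from each gene's mean over 6 clones (log2), the mitotic median was 0.23, -0.44 and -0.20 for control clones 1, 2 and 3 and 0.12, 0.12 and 0.17 for dKO clones 1, 2 and 3. The dKO clones were thus close together and the control clones far apart. The SD of the log2 level over 3 clones had a median of 0.33 in control and 0.10 in dKO clones. It was larger in control clones for 28 of 30 genes, and for 21 of 28 replication genes. Over all transcripts the medians were 0.29 and 0.23, and transcripts with a larger control SD were not counted. Summed over the 30 genes, the level was 5798, 3819 and 4441 CPM for control clones 1, 2 and 3 and 5459, 5637 and 5882 CPM across dKO clones 1, 2 and 3.

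Because control clone 1 stood apart and was high, the fit was repeated without it. Leaving out a high control raises these fold changes by construction, so adjusted p-values without it are conditional on that choice. The mitotic median was then 0.45, and 3 genes passed, Cenpe (0.70, limma adjusted p = 0.0226), Cenpf (0.68, adjusted p = 0.0276) and Hmmr (0.65, adjusted p = 0.0411); 0.464% of all transcripts were called higher and 0.372% lower in that fit, 0.836% together. Within the 4 libraries left once dKO clone 3 was also removed the median was 0.42 and 8 genes passed, namely Bub1b, Ccna2, Kif11, Cenpe, Cenpf, Nusap1, Tpx2 and Hmmr, against 1.53% of all transcripts called higher and 1.47% lower, 3.00% together. Between the libraries that stood apart, dKO clone 3 minus control clone 1 had a median of -0.10 over the mitotic genes, with 11 of 30 positive. Without control clone 2 the median was 0.13 with 25 of 30 positive, and none passed. The difference between groups in mitotic genes therefore depended on which control clones were used. No replication gene passed in any of these fits, and their medians were 0.12 without control clone 1 and 0.07 within the 4 libraries.

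Genes of chromosome structure, the centromere and the kinetochore had the highest median of the 4 mitotic roles, 0.36 over 8 genes. Top2a (ENSMUSG00000020914.17, transcript ENSMUST00000068031.7, GRCm38 chromosome 11, 98992943 to 99024189, minus strand, protein-coding, 36 exons), the topoisomerase that untangles sister chromatids, had 584, 525 and 598 CPM across controls and 657, 811 and 834 CPM across dKO clones. All 3 dKO values exceeded all 3 control values, and Top2a had the highest mean level per length of the mitotic genes. It had 569 ± 38.7 CPM across controls and 767 ± 96.7 CPM across dKO clones (SD, n = 3 each), giving a log2 fold change of 0.43 (SE 0.15; 95% interval 0.09 to 0.76; limma adjusted p = 0.570). Non-overlapping groups were found for 4 of 30 mitotic genes, all higher in dKO clones, against 5.15% of all transcripts. Another was Ndc80 (ENSMUSG00000024056.10, transcript ENSMUST00000024851.9, GRCm38 chromosome 17, 71496100 to 71526857, minus strand, protein-coding, 17 exons), which links kinetochores to microtubules, with 55.9, 39.6 and 48.9 CPM across controls and 56.3, 59.6 and 69.7 CPM across dKO clones. Ndc80 had a log2 fold change of 0.37 (SE 0.16; 95% interval 0.03 to 0.71; limma adjusted p = 0.711). Control clone 1 and dKO clone 1 were nearly equal, so these groups are separated by a small margin.

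Cenpe (ENSMUSG00000045328.11, transcript ENSMUST00000062893.11, GRCm38 chromosome 3, 135212537 to 135273611, plus strand, protein-coding, 46 exons), a kinesin that carries chromosomes to the spindle equator, had the highest fold change of all members, with 256, 149 and 162 CPM across controls and 243, 249.9 and 264 CPM across dKO clones. Control clone 1 lay above dKO clones 1 and 2, and control clones 2 and 3 were far lower, so the groups overlapped despite a log2 fold change of 0.45 (SE 0.19; 95% interval 0.04 to 0.86; limma adjusted p = 0.694). Cenpf (ENSMUSG00000026605.14, transcript ENSMUST00000171929.7, GRCm38 chromosome 1, 189640606 to 189688086, minus strand, protein-coding, 18 exons), a large kinetochore and nuclear matrix protein, showed the same arrangement more strongly: its control values were 384, 202 and 216 CPM and its dKO values 326, 359 and 319 CPM. Control clone 1 was the highest of the 6 clones, and the fold change was 0.38 with all clones and 0.68 without control clone 1. Nuf2, the partner of Ndc80, had 40.9 ± 9.42 CPM across controls and 49.7 ± 3.44 CPM across dKO clones (log2 fold change 0.31). Mki67, the nuclear antigen used to mark dividing cells, had 840.0, 481 and 608 CPM across controls and 751, 810.0 and 822 CPM across dKO clones (0.34). Birc5, the survivin subunit of the chromosomal passenger complex, and Cenpa, the histone variant of the centromere, were at 0.15 and 0.12. Control clone 1 was the highest clone for Cenpa, with 92.1 CPM against 71.9, 58.7 and 68.7 CPM. Chromosome 5, which holds Cenpa, deviated by a median of 0.16 in that clone over 1049 tested genes, and the fold change of Cenpa was 0.08 with chromosome medians removed.

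**Figure D2:**
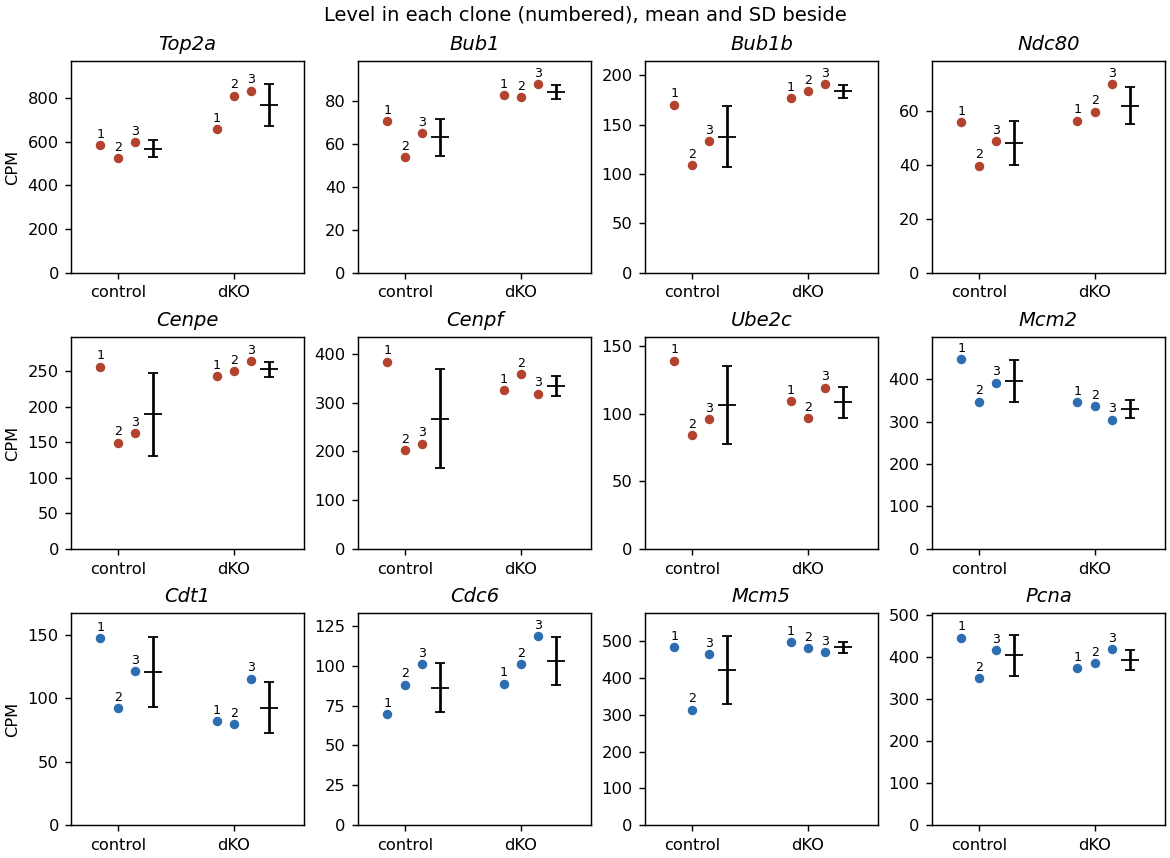
Level in CPM of 12 members in each clone (points, numbered by clone) with the mean and SD of each group beside them; red marks mitotic and blue replication genes, and every axis starts at 0. The groups are separate for Top2a, Bub1, Bub1b and Ndc80 (higher in dKO) and Mcm2 (lower in dKO), while control clone 1 reaches or passes the dKO values for Cenpe, Cenpf and Ube2c.

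The spindle checkpoint holds anaphase back until every kinetochore is attached, and the anaphase-promoting complex ends mitosis once the checkpoint is off. The checkpoint kinase gene Bub1 (ENSMUSG00000027379.13, transcript ENSMUST00000028858.7, GRCm38 chromosome 2, 127801122 to 127831865, minus strand, protein-coding, 25 exons) had 70.6, 53.9 and 64.9 CPM across controls and 82.9, 81.8 and 87.9 CPM across dKO clones. The groups did not overlap, and Bub1 had the lowest p of all members, with 63.1 ± 8.48 CPM across controls and 84.2 ± 3.26 CPM across dKO clones. Bub1 had a log2 fold change of 0.42 (SE 0.13; 95% interval 0.13 to 0.72; limma adjusted p = 0.443). Bub1b (ENSMUSG00000040084.9, transcript ENSMUST00000038341.7, GRCm38 chromosome 2, 118598211 to 118641591, plus strand, protein-coding, 23 exons), which encodes the checkpoint protein BubR1, had 170.4, 109 and 133 CPM across controls and 177, 184 and 191 CPM across dKO clones. Bub1b had a log2 fold change of 0.44 (SE 0.16; 95% interval 0.09 to 0.79; limma adjusted p = 0.570). It was also separate between groups, although control clone 1 was close to the lowest dKO clone. Ttk, the kinase that starts checkpoint signalling and the mitotic gene with the lowest mean level per length, had 20.2, 16.1 and 17.3 CPM across controls and 22.2, 19.98 and 23.6 CPM across dKO clones (log2 fold change 0.30 ± 0.16 SE, with limma adjusted p = 0.924). Cdc20, which activates the anaphase-promoting complex, had 136, 81.5 and 97.3 CPM across controls and 113, 98.5 and 119.6 CPM across dKO clones, giving a log2 fold change of 0.10. Ube2c, the ubiquitin-conjugating enzyme of that complex, had 139, 84.4 and 95.9 CPM across controls and 109, 96.7 and 119 CPM across dKO clones. Ube2c had a log2 fold change of 0.05 (SE 0.18; 95% interval -0.34 to 0.45; limma adjusted p = 1.00). Without control clone 2 the fold change of Cdc20 was -0.06. For both Cdc20 and Ube2c control clone 1 was the highest of the 6 clones and control clone 2 the lowest. The interval for Ube2c allows a ratio of dKO to control from 0.789 to 1.37, and the fold change was -0.10 without control clone 2.

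Cyclins and the kinases of mitotic entry had a median of 0.23 over 7 genes. Ccna2, the cyclin of S phase and G2, had 374, 234 and 278 CPM across controls and 358, 361 and 355 CPM across dKO clones. The dKO clones were nearly equal, and all of them lay between control clone 1 and the other control clones. Its groups overlapped (log2 fold change 0.30 ± 0.17 SE, with limma adjusted p = 0.934; 0.49 without control clone 1). The B-type cyclin genes Ccnb1 and Ccnb2, whose products drive entry into mitosis, had log2 fold changes of 0.23 and 0.22, with control clone 1 highest for both. Cdk1, the kinase they activate, had 182 ± 14.6 CPM across controls and 197 ± 18.96 CPM across dKO clones and overlapped between groups (log2 fold change 0.11 ± 0.13 SE, with limma adjusted p = 1.00). Plk1, which acts from centrosome maturation to cytokinesis, had 45.7, 25.4 and 32.2 CPM across controls and 38.99, 38.6 and 40.9 CPM across dKO clones (log2 fold change 0.24 ± 0.19 SE, with limma adjusted p = 1.00). The dKO values of Plk1 were close together, inside the range of the control clones. Aurka, a centrosome kinase, and Aurkb, the kinase of the chromosomal passenger complex, were at 0.28 and 0.17.

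Spindle motors, spindle factors and cytokinesis genes had a median of 0.27 over 10 genes. Kif11, the motor that pushes the spindle poles apart, had 312, 205 and 235 CPM across controls and 294, 334 and 372 CPM across dKO clones (log2 fold change 0.42 ± 0.17 SE, with limma adjusted p = 0.676). Control clone 1 lay above dKO clone 1 and below the other dKO clones. Kif11 lies on chromosome 19, and its fold change was 0.30 with chromosome medians removed. Hmmr (ENSMUSG00000020330.16, transcript ENSMUST00000020579.8, GRCm38 chromosome 11, 40701395 to 40733422, minus strand, protein-coding, 18 exons), a spindle assembly factor, had 108, 61.9 and 72.9 CPM across controls and 106, 110.4 and 98.9 CPM across dKO clones. Control clone 1 was inside the dKO range, and Hmmr had a log2 fold change of 0.41 (SE 0.18; 95% interval 0.01 to 0.82; limma adjusted p = 0.783). Kif20a, Kif23, Prc1, Anln and Ect2, which build the central spindle and the cleavage furrow, had log2 fold changes of 0.27, 0.23, 0.26, 0.06 and 0.12. The furrow genes Anln and Ect2 were thus at the low end, and Anln had 413, 291 and 334 CPM across controls and 359, 333 and 380.0 CPM across dKO clones. The spindle assembly factors Tpx2 and Nusap1 were at 0.28 and 0.27, and the microtubule depolymerase Kif2c at 0.24.

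Origin licensing, in which Cdc6 and Cdt1 load the MCM helicase onto DNA before S phase, gave the replication genes with both extremes of fold change. The median over 8 licensing genes was 0.03. Cdt1 (ENSMUSG00000006585.3, transcript ENSMUST00000006760.2, GRCm38 chromosome 8, 122568015 to 122573128, plus strand, protein-coding, 10 exons) had 147, 92.2 and 121 CPM across controls and 82.01, 79.6 and 115 CPM across dKO clones. The dKO mean was lower, but dKO clone 3 lay within the control range (120.3 ± 27.6 CPM across controls and 92.3 ± 19.99 CPM across dKO clones; log2 fold change -0.38 ± 0.19 SE, with limma adjusted p = 0.895). Cdc6 (ENSMUSG00000017499.15, transcript ENSMUST00000092706.12, GRCm38 chromosome 11, 98907801 to 98923936, plus strand, protein-coding, 12 exons) had the opposite sign, with 69.9, 88.3 and 101 CPM across controls and 88.9, 101 and 119 CPM across dKO clones. Cdc6 had a log2 fold change of 0.26 (SE 0.16; 95% interval -0.10 to 0.62; limma adjusted p = 0.987). Control clone 1 had the lowest and dKO clone 3 the highest level, and the value was 0.12 without control clone 1 and 0.01 within the 4 libraries. The loading factors therefore had fold changes of opposite sign, neither past the threshold.

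Mcm2 (ENSMUSG00000002870.8, transcript ENSMUST00000058011.7, GRCm38 chromosome 6, 88883474 to 88898780, minus strand, protein-coding, 16 exons), a helicase subunit, was the only one of 28 replication genes whose groups did not overlap, and it was lower in dKO clones, with 447, 347 and 392 CPM across controls and 347, 336 and 305 CPM across dKO clones. Of all transcripts 5.67% were lower in this way, and the margin between control clone 2 and dKO clone 1 was below 1 CPM. Mcm2 had 395 ± 49.8 CPM across controls and 329 ± 21.7 CPM across dKO clones. Mcm2 had a log2 fold change of -0.26 (SE 0.14; 95% interval -0.57 to 0.05; limma adjusted p = 0.933). It lies on chromosome 6, whose 877 tested genes deviated by a median of -0.40 in dKO clone 3. With each library's chromosome medians removed, the fold change of Mcm2 was -0.09. The other helicase subunits, which form a ring with Mcm2, had positive values, which turned negative for all but Mcm5 without control clone 2: Mcm3, Mcm4, Mcm5, Mcm6 and Mcm7 were at 0.01, 0.04, 0.22, 0.02 and 0.05. Mcm5, on chromosome 8, had 485, 314 and 465 CPM across controls and 499, 481 and 470.4 CPM across dKO clones, so its value rested on control clone 2 (log2 fold change 0.22 ± 0.17 SE, with limma adjusted p = 1.00; 0.02 without that clone). Over the 856 tested genes of chromosome 8, which also holds Cdt1, the median deviation was 0.20 in control clone 1 and -0.19 in control clone 2, and with chromosome medians removed Mcm5 was at 0.25 and Cdt1 at -0.35. Mcm6 and Mcm7 had the highest mean levels per length of the subunits. Mcm6 had 627 ± 113 CPM across controls and 631 ± 14.5 CPM across dKO clones. Mcm7 had 519 ± 64.1 CPM across controls and 536 ± 48.2 CPM across dKO clones.

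Helicase activators, the sliding clamp, its loader and the polymerases had fold changes from -0.04 to 0.23 on the log2 scale, and none passed. Mcm10, Cdc45 and Gins1, which turn the loaded helicase into an active one, had log2 fold changes of 0.13, 0.12 and -0.02. The first pair was highest in dKO clone 3 (72.3 and 111 CPM) and was at -0.02 and -0.03 within the 4 libraries. Gins1 had 22.4, 24.9 and 23.7 CPM across controls and 21.7, 24.6 and 23.7 CPM across dKO clones, with little spread. Pcna, the clamp and the replication gene with the highest mean level per length, had 446, 350.1 and 416 CPM across controls and 372, 385 and 419 CPM across dKO clones. Its groups overlapped fully (404 ± 48.9 CPM across controls and 392 ± 23.97 CPM across dKO clones; log2 fold change -0.04 ± 0.14 SE, with limma adjusted p = 1.00), with a 95% interval of -0.35 to 0.27. The clamp loader subunits Rfc2, Rfc3 and Rfc4 were at -0.02, 0.09 and 0.12, and within the 4 libraries at 0.07, 0.14 and -0.02. Prim1, the primase that starts each new strand, had 122, 154 and 175 CPM across controls and 159, 176 and 192 CPM across dKO clones (log2 fold change 0.23 ± 0.15 SE, with limma adjusted p = 1.00). Its low control value was that of control clone 1, and the 849 tested genes of its chromosome 10 had a median deviation of -0.23 in that clone; Cdk1 lies on the same chromosome. With chromosome medians removed Prim1 was at 0.21, and without control clone 1 at 0.10. Polymerase genes Pola1, Pold1 and Pole were at 0.10, 0.07 and 0.09.

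Genes of nucleotide supply, Okazaki fragment processing and G1/S control completed the replication set. The ribonucleotide reductase genes Rrm1 and Rrm2, whose products make deoxynucleotides, were at -0.02 and 0.20, and Tyms, which makes thymidylate, had 164, 94.2 and 101 CPM across controls and 128, 119.6 and 136 CPM across dKO clones (0.14). Control clone 1 was the highest for Tyms, and the value without it was 0.39. Fen1, the nuclease that trims Okazaki fragments, had 194, 164 and 194 CPM across controls and 179, 208 and 251 CPM across dKO clones (log2 fold change 0.20 ± 0.15 SE, with limma adjusted p = 1.00), while Lig1, which seals them, was at 0.01. For Fen1, dKO clones 2 and 3 lay above every control clone and dKO clone 1 did not. The 620 tested genes of its chromosome 19 deviated by a median of 0.11 and 0.15 in those dKO clones, and with chromosome medians removed Fen1 was at 0.07. Rrm2, on chromosome 12, was at 0.11 in that fit. The cyclin E genes, which drive entry into S phase, had low levels: Ccne1 had 30.96, 16.4 and 23.6 CPM across controls and 22.2, 24.7 and 24.9 CPM across dKO clones (log2 fold change 0.06 ± 0.21 SE, with limma adjusted p = 1.00). Ccne2 had 69.4, 45.7 and 59.5 and 57.3, 78.3 and 68.1 CPM (log2 fold change 0.23 ± 0.18 SE, with limma adjusted p = 1.00). Their control clones spread as the mitotic genes did, with control clone 1 high and control clone 2 low. E2f1, the activator of G1/S genes, had 31.8, 38.9 and 38.1 CPM across controls and 33.3, 34.6 and 37.4 CPM across dKO clones (log2 fold change -0.04 ± 0.14 SE, with limma adjusted p = 1.00), with control clone 1 lowest. Uhrf1, which carries DNA methylation through replication, was at 0.10.

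**Figure D3:**
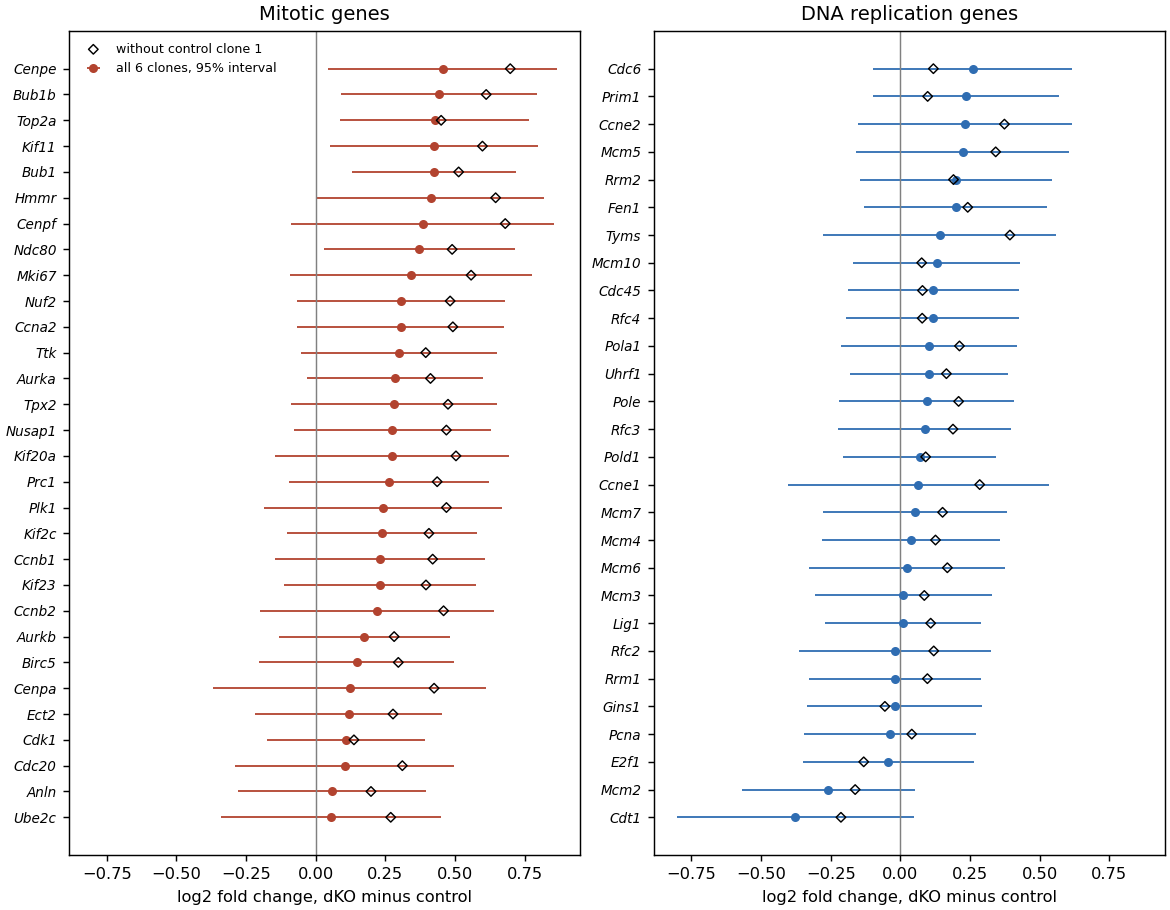
Log2 fold change of each gene, dKO minus control, with its 95% interval (filled points, all 6 clones) and without control clone 1 (open diamonds). All 30 mitotic values lie above 0, and 7 of their intervals exclude it before adjustment; every interval of the replication genes includes 0.

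Set against each other, the mitotic and replication genes lay apart in some clones and together in others. The replication median deviation was 0.15, -0.17 and 0.01 for control clones 1, 2 and 3 and -0.06, -0.02 and 0.14 for dKO clones 1, 2 and 3. In control clone 1 and dKO clone 3 both sets were above their mean over 6 clones, and in control clone 2 both were below it. In control clone 3 the mitotic genes were low and the replication genes near 0, and in dKO clones 1 and 2 the mitotic genes were high and the replication genes slightly below 0. The mitotic minus the replication median was 0.08, -0.27 and -0.22 in the control clones, against 0.18, 0.14 and 0.03 in the dKO clones. This difference was negative in control clones 2 and 3 and positive in the other 4 clones; control clone 1 lay inside the dKO range, so the groups overlapped. Their median fold changes differed by 0.20. Summed over the 28 replication genes, the level was 6483, 5112 and 5832 CPM across controls and 5804, 5756 and 6372 CPM across dKO clones, a narrower range than that of the mitotic sum. The members of a set share their libraries and are not replicates of a clone, so no test was made of these medians.

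**Figure D4:**
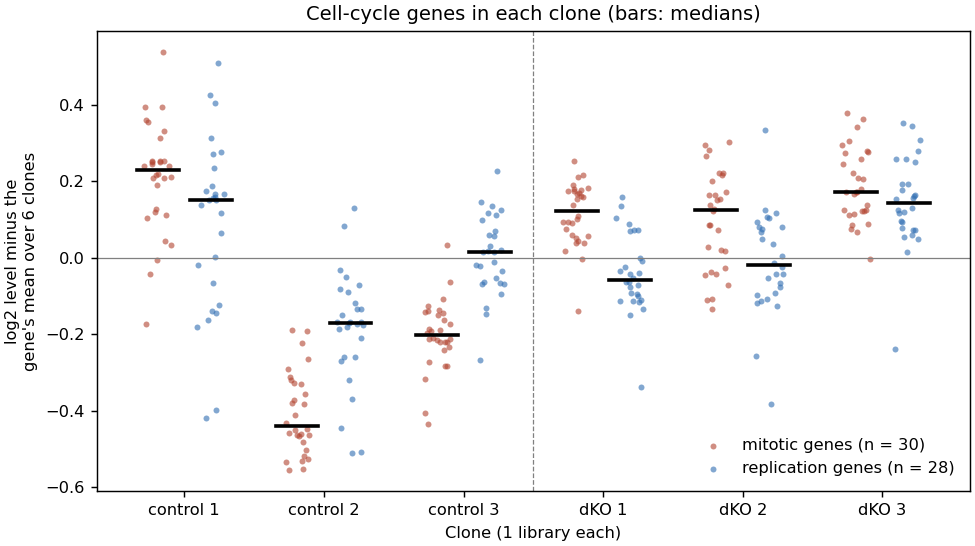
Log2 level of every member minus its mean over 6 clones, by clone, with mitotic genes in red, replication genes in blue and the median of each as a bar. The mitotic median is -0.44 in control clone 2 and -0.20 in control clone 3 and between 0.12 and 0.23 in the other 4 clones; the replication medians stay between -0.17 and 0.15.

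Levels can be compared between genes only per transcript length, for which the deposited FPKM (fragments per kilobase, per unit of depth) were used. Replication genes held the highest places, with means over 6 clones of 105 for Pcna, 87.2 for Mcm6, 71.8 for Mcm7, 53.2 for Mcm5 and 52.7 for Mcm4 FPKM. The first mitotic gene was Top2a, at 51.4 FPKM, followed among the mitotic genes by Ube2c at 45.3 and Ccna2 at 44.2. Their ranges over clones, 34.5 to 73.4 and 29.9 to 64.7 and 26.9 to 56.2 FPKM, overlapped, so their order is not resolved, nor is that of Top2a against Mcm4 and Mcm5. These ranges also hold differences between libraries in the total behind the FPKM. The lowest members were Ttk at 2.81, Ccne1 at 4.82, E2f1 at 5.13 and Plk1 at 6.80 FPKM, all of them regulators of the cycle. The deposited FPKM of Birc5, Cdc6, Tpx2, Cdc45 and Fen1 imply more reads than the read column lists for them, which then holds 32.2%, 62.6%, 85.9%, 86.8% and 91.5% of the implied reads, and their place in this order and their CPM are uncertain.

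**Figure D5:**
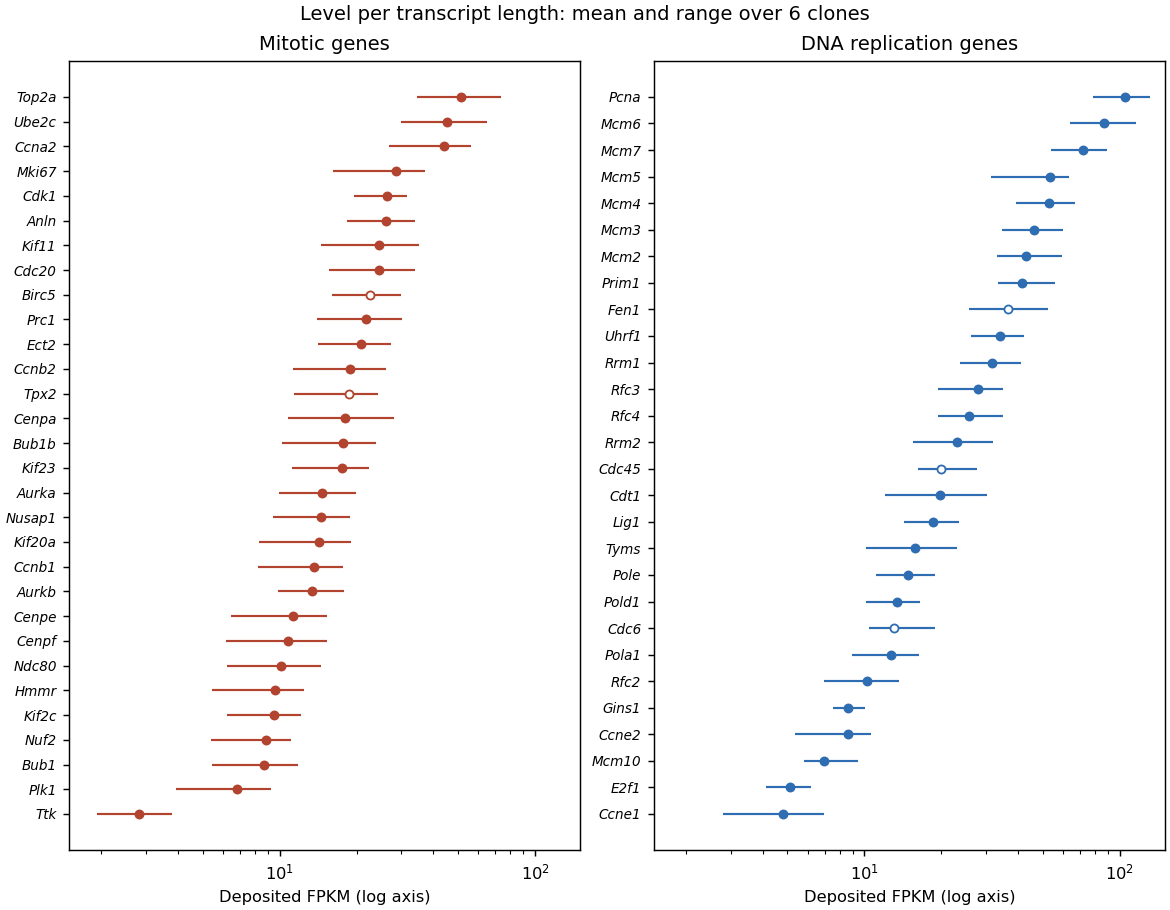
Deposited FPKM of each member on a log axis, with the mean (point) and the range (line) over 6 clones; open points mark the 5 genes whose FPKM imply more reads than are listed. Mean levels run from 2.81 FPKM for Ttk to 105 FPKM for Pcna.

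Other mitotic genes, outside the members, had a similar arrangement over the clones. Of 34 tested, 31 had a positive fold change, against 49.8% of all transcripts, the median was 0.24 and none passed in either direction. Their median deviation was 0.15, -0.33 and -0.14 for control clones 1, 2 and 3 and 0.07, 0.12 and 0.18 for dKO clones 1, 2 and 3. Control clone 2 was lowest for 29 of them, against 20.5% of all transcripts. None passed without control clone 1, where 0.836% of all transcripts did, and 7 passed within the 4 libraries, where 3.00% did, with a median of 0.32. The chromokinesin gene Kif4 had 71.95 ± 12.4 CPM across controls and 91.9 ± 4.26 CPM across dKO clones (log2 fold change 0.37 ± 0.14 SE, with limma adjusted p = 0.648). The condensin subunit gene Smc2 had 143 ± 19.7 CPM across controls and 179 ± 10.8 CPM across dKO clones (log2 fold change 0.33 ± 0.13 SE, with limma adjusted p = 0.694). Of 34 other replication genes, 26 were positive, with a median of 0.09, and none passed. The replication initiator gene Ticrr had 71.3 ± 8.48 CPM across controls and 98.1 ± 16.7 CPM across dKO clones (log2 fold change 0.45 ± 0.15 SE, with limma adjusted p = 0.497). Cdc7, the kinase that fires origins, had 52.8 ± 9.80 CPM across controls and 65.9 ± 2.79 CPM across dKO clones (log2 fold change 0.34 ± 0.15 SE, with limma adjusted p = 0.766).

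Regulators upstream of these genes had list medians of -0.10 to 0.04, and none of them passed with all 6 libraries. Of 14 E2F, DREAM, MuvB and FoxM1 genes 7 were positive, with a median of 0.01. The repressor gene E2f4 had 84.8 ± 17.8 CPM across controls and 65.2 ± 9.08 CPM across dKO clones (log2 fold change -0.36 ± 0.17 SE, with limma adjusted p = 0.838). E2f6, another repressor gene, had 19.4 ± 7.60 CPM across controls and 26.2 ± 4.59 CPM across dKO clones (log2 fold change 0.51 ± 0.28 SE, with limma adjusted p = 0.933). Foxm1, an activator of mitotic genes named after its values were seen, had 79.2, 59.4 and 61.2 CPM across controls and 64.8, 60.01 and 52.98 CPM across dKO clones, giving a log2 fold change of -0.16 with the groups overlapping. Among 8 G1 cyclin and kinase genes the median was -0.10, with 0.02 without control clone 1 and -0.02 within the 4 libraries. Myc, a transcription factor gene that promotes growth, had 74.1, 91.1 and 87.9 CPM across controls and 61.4, 65.4 and 73.8 CPM across dKO clones (log2 fold change -0.33 ± 0.13 SE, with limma adjusted p = 0.682). It was lower in every dKO clone, as were 5.67% of all transcripts, but control clone 1 and dKO clone 3 were nearly equal. Myc passed within the 4 libraries, where 1.47% of all transcripts were called lower. The D-type cyclin gene Ccnd3 had 63.6 ± 13.8 CPM across controls and 52.7 ± 7.39 CPM across dKO clones (log2 fold change -0.26 ± 0.17 SE, with limma adjusted p = 1.00). Of 10 CDK inhibitor and pocket protein genes 6 were positive, with a median of 0.04. This median was 0.13 without control clone 1 and 0.17 within the 4 libraries. The inhibitor gene Cdkn2c was at 0.29 and the pocket protein gene Rbl2 at -0.31.

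Targets of p53, which halts the cycle after damage, had a negative median of -0.29 over 12 genes, with 9 negative and none past the threshold. Their median deviation was 0.49 in control clone 1 and -0.28 and 0.03 in the others, against 0.0024, -0.27 and -0.08 for dKO clones 1 to 3. Control clone 1 was therefore high for p53 targets as well as for mitotic genes, and without it the p53 median was -0.02. A high level there was not particular to these sets. The median deviation in control clone 1 was 0.23 for epithelial markers, 0.24 for principal-cell markers and 0.27 for CDK inhibitor and pocket protein genes. It was negative for intercalated-cell, proximal-tubule, fibroblast, endothelial and blood-cell markers, most of which stayed below 5 CPM. The p53 target gene Phlda3 had 75.5 ± 38.8 CPM across controls and 45.2 ± 10.3 CPM across dKO clones (log2 fold change -0.63 ± 0.30 SE, with limma adjusted p = 0.838), and Pmaip1, which promotes apoptosis, was at 0.36. Cdkn1a, the p53-induced CDK inhibitor gene p21, named after its values were seen, had 152, 62.3 and 81.4 CPM across controls and 76.9, 57.3 and 80.01 CPM across dKO clones, highest in control clone 1. The part of p53 targets in the mitotic levels of control clone 1 was not tested.

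The authors' deposited table of their own comparison lists all 58 members and gives none of them a false discovery rate under 0.05, against 3.47% of its transcripts. In the authors' deposited table all 30 mitotic genes have a positive log2 fold change, with a median of 0.24, and 18 of 28 replication genes do, with a median of 0.06. The lowest false discovery rates there are 0.0623 for Top2a, 0.0700 for Bub1 and 0.0706 for Bub1b among the mitotic genes and 0.166 for Cdt1 among the replication genes.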

How the data were processed

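RNA was depleted of ribosomal RNA and made into stranded, randomly primed libraries from 262 ng of total RNA per clone, per the labels' protocols. STAR 2.5.2a, SAMtools, HOMER 4.8, edgeR and build GRCm38.p5 appear, without roles, in what the submitters' processing notes list; how reads of overlapping genes or paralogs were assigned was not stated. The deposited read columns are a signal that sums to nearly the same total in every library, and every value was a whole multiple of 1 step per library within 0.01, which gave back whole reads. The deposited FPKM were used only to compare genes, and transcript lengths as listed. The authors' table holds log2 fold changes, p-values and false discovery rates, per the file headers.

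All transcripts were fitted together in limma 3.58.1 (trend option) under R 4.3.3, on log2(scaled reads / TMM factor + 1), with TMM factors of 0.909 to 1.07 from edgeR 4.0.16. Transcripts were kept by filterByExpr on recovered reads (minimum 10, total 15). The design compared dKO with control over 6 libraries, with a threshold of 0.05. The pseudocount of 1 equals 0.0550 CPM, so fold changes of low genes are understated. CPM were computed from recovered reads and TMM-adjusted totals. DESeq2 1.42.0 served as an alternative. Scripts were tested on simulated data. The members, lists and tests were chosen with earlier results of these data known, as were the libraries that stood apart. The genes given with full values were, of each set, those past the threshold, the 7 with the lowest p, the 3 with the highest and 2 with the lowest FPKM, those with non-overlapping groups and the extremes of fold change; and of each other list the 2 with the lowest p. Further members are named by role.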

Additional observations from a re-analysis of the deposited data

How the results depend on the processing

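Over 19 alternatives (edgeR's quasi-likelihood test, DESeq2, limma-voom, no TMM factors, other pseudocounts and filters, FPKM, a replicate block, a term for the libraries that stood apart, chromosome medians removed, the 4 libraries, and each library left out) no replication gene passed. The number of mitotic genes past the threshold was 0 except for 3 without control clone 1 and 8 within the 4 libraries, where the mitotic minus replication median was 0.35 against 0.20. With each library left out, the mitotic count was 0 to 3, the mitotic median 0.13 to 0.45, the replication median 0.0034 to 0.12 and their difference 0.12 to 0.34. Within the 4 libraries 0 mitotic and 6 replication genes changed sign. With each library left out, 0 to 5 mitotic and 2 to 11 replication genes changed sign, most of them without control clone 2. Of the genes given with full values these were 6, with ranges of -0.139 to 0.0407 for Pcna, -0.0986 to 0.269 for Ube2c, -0.0779 to 0.168 for Mcm6, -0.0255 to 0.151 for Mcm7, -0.179 to 0.284 for Ccne1 and -0.132 to 0.00801 for E2f1. Their sign turned without control clone 2 for Ube2c, Mcm6, Mcm7, Ccne1 and E2f1, without control clone 3 for Ube2c and Mcm6, without dKO clone 3 for Ube2c, and without control clone 1 or dKO clone 1 for Pcna. The others without control clone 2 were Cdc20, Cenpa, Anln, Ect2, Mcm3, Mcm4, Gins1, Rfc3, Pola1, Tyms and Lig1. The cause was not tested. Over all transcripts 28 were called, against 209 by DESeq2, 17 without TMM factors, 91 on FPKM, 71 with the term for libraries, 518 within the 4 libraries, 146 without control clone 1, and 13, 11 and 47 without dKO clones 1, 2 and 3; the rest, the block aside, were within 1.5 times the main count. Clones share only a number: same-numbered deviations correlated at -0.36, 0.64 and -0.34, and a replicate block gave 196 calls over all transcripts, 0 mitotic and 0 replication genes, and medians of 0.27 and 0.08. With 3 clones a group the median 95% interval of a mitotic gene spans 0.73 on the log2 scale from end to end. The median fold change is 0.27, and 7 of the 30 intervals exclude 0 before adjustment.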
